A study of Mus musculus with 60 samples.

Results

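The 36 genes described here encode aminoacyl tRNA synthetases and were taken by name from the 23393 named entries of a table of gene expression in mouse fetal liver erythroblasts. Of these, 20 encode enzymes of the cytosol and 16, whose symbols end in 2, enzymes of the mitochondrion. RNA was measured by poly-A selected, directional sequencing in 20 libraries from C57BL/6 embryos. The embryos were wild type or Gata1s, a Gata1 mutation after which only a GATA1 protein without its N-terminal part is made. Livers were taken at the embryonic days E12.5 and E14.5. Erythroblasts were sorted by the transferrin receptor CD71 and the late erythroid antigen Ter119 into R1/2 (CD71 high, Ter119 negative to medium or low, as the labels variously put it) and R3 (CD71 high, Ter119 high), the later stage. Wild type gave 2 libraries of E12.5 R1/2, 3 of E12.5 R3, 2 of E14.5 R1/2 and 2 of E14.5 R3, and Gata1s gave 4, 2, 3 and 2. Whether the libraries of a group stem from different embryos is not in the labels; p-values here therefore describe the spread between these libraries, which may be technical.

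A synthetase joins an amino acid to its tRNA, the step that fixes which amino acid a codon stands for. The cytosolic enzymes serve the ribosomes that translate nuclear messages, and the mitochondrial enzymes, all encoded in the nucleus, serve the few proteins made inside the organelle. The products of Gars and Kars also charge mitochondrial tRNAs. Several cytosolic enzymes (Dars, Eprs, Iars, Kars, Lars, Mars, Qars and Rars) sit together in the multisynthetase complex, and the others act outside it. Farsa and Farsb encode the subunits of 1 cytosolic phenylalanine enzyme. Erythroblasts fill with globin while they mature, and at the end of maturation they lose their nucleus and their mitochondria.

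Recovered reads numbered 6931315 to 32699098 a library. The sorts looked as labelled: the summed normalised counts of 7 erythroblast markers were 23139 to 76364 in R1/2 and 314071 to 1670105 in R3, with none at 0. Markers of megakaryocytes summed to 288 to 451 in wild type and 773 to 1784 in Gata1s R1/2 libraries, and to 830 to 1350 and 3005 to 4922 in R3. Library 2 of wild type E14.5 R1/2 stood apart, with 19791 normalised counts of neutrophil and monocyte markers against 748 in library 1. The 12 libraries whose names start with MS and the 8 that start with JC were told apart by a term in the fit, since 992 genes were higher and 570 lower in MS. All 6 hepatoblast markers tested were lower in MS by limma, at log2 values of -1.70 to -2.39. Among members Nars was higher in MS (0.14), and Aars2 (-0.40), Ears2 (-0.40), Sars2 (-0.23) and Vars2 (-0.22) were lower. All Gata1s R3 libraries are MS, and each wild type group holds 1 MS library. Counts among MS libraries alone therefore set a single wild type library against Gata1s, or against another single one, with the spread taken from Gata1s, and are no replicate check.

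The bases before the start of 27 of the 36 genes were found in the RefSeq promoter table (GRCm38.p6). Both strands of the 250 bases before the start were searched for TGATGNAA, letters of the composite element that Atf4 and its C/EBP partners bind, and for GATAA, the core letters bound by GATA factors. The first was found in 3 of 13 cytosolic genes and 0 of 14 mitochondrial genes, and 3.45% of 32851 promoters hold it. The second was found in 1 of 13 (Farsb) and 2 of 14 (Aars2 and Sars2), and 22.6% of promoters hold it. The 3 cytosolic genes with the first motif are shown because they moved in different directions between the sorts. Fars2 is shown because it had the widest difference between the genotypes, and its 250 bases hold neither motif. The motif is in capitals, on the strand opposite to the gene in all 3, and begins 112 bases before the start in Aars, 30 in Gars and 15 in Tars. A match is a description of these letters only. Aars lies at chr8:111033592-111033841, plus strand, Gars at chr6:55037751-55038000, plus strand, Tars at chr15:11399659-11399908, minus strand and Fars2 at chr13:36117393-36117642, plus strand.
Aars: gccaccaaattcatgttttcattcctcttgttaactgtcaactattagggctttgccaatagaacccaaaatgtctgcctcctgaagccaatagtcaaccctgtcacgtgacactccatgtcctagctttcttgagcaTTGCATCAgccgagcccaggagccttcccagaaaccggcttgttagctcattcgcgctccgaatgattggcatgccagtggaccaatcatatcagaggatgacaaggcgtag
Gars: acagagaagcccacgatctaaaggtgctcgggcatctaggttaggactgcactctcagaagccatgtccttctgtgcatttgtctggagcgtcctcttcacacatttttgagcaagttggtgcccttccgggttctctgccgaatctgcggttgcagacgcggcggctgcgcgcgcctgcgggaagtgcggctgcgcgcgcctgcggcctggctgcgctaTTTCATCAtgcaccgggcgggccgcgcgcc
Tars: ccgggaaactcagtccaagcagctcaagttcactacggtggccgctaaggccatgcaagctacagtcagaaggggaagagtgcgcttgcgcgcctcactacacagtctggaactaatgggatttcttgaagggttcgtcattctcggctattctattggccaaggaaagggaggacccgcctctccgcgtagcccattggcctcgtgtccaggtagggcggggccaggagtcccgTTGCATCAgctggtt
Fars2: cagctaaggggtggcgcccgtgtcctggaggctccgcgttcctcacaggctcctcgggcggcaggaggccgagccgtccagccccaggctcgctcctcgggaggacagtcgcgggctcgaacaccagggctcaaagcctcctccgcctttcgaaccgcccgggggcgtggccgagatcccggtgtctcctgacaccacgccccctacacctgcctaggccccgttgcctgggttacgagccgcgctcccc

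Taken as classes and without Lars2, the 2 sets of enzymes parted between the sorts. The 20 cytosolic genes summed to 71747 to 85564 normalised counts in the 11 R1/2 libraries, to 77315 to 84493 in 5 libraries of E12.5 R3 and to 64783 to 69514 in the 4 E14.5 R3 libraries. On this scale the sum overlapped between R1/2 and E12.5 R3 and was lower in E14.5 R3. As a percentage of all normalised counts of a library it did not overlap, at 0.563 to 0.728% in R1/2, 0.390 to 0.530% in E12.5 R3 and 0.209 to 0.266% in E14.5 R3, the totals being higher in R3. The mitochondrial sum is given without Lars2, which is described apart below. Lars2 alone was at 46765 to 114969 in R3, and at 8515 to 24011 in R1/2 apart from 139282 in 1 library. Outside that library a sum of all 16 was therefore not lower in R3, and the fall holds for the other 15 only. The other 15 summed to 8973 to 10128 in R1/2, to 5906 to 6717 in E12.5 R3 and to 5244 to 6225 in E14.5 R3. As a percentage of the cytosolic sum this was 11.2 to 13.3% in R1/2 and 7.18 to 9.23% in R3, and the sorts did not overlap. Counts are not per length of transcript, so these percentages are read only between libraries and not as the ratio of the messages. In bulk RNA, fewer cells of a type and less RNA per cell cannot be told apart.

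By this percentage the genotypes overlapped at E14.5 within R1/2 and at E12.5 within R3. The Gata1s E12.5 R1/2 libraries, at 11.38 to 12.51%, were below both of wild type (12.64 and 12.81%), by a narrow gap. The sum of 15 itself overlapped there, at 9197 to 10066 in Gata1s and 9682 and 9717 in wild type. The cytosolic sum below it was higher in Gata1s, at 78719 to 85564 against 75558 and 76863. In E14.5 R3 the percentage was 7.54 and 7.93% in the wild type libraries and 9.15 and 9.23% in Gata1s. Without Fars2 the order was the opposite: the other 14 made up 6.66 and 6.36% of the cytosolic sum in wild type and 5.11 and 5.34% in Gata1s. Fars2 alone held 44.2 and 42.1% of the sum of 15 in Gata1s E14.5 R3, 11.7 and 19.8% in wild type E14.5 R3, and 2.74 to 4.09% in R1/2. The sums have no test. The plot of class sums shows the drop between the sorts in both genotypes and the order of the last groups with and without Fars2.

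**Figure D1:**
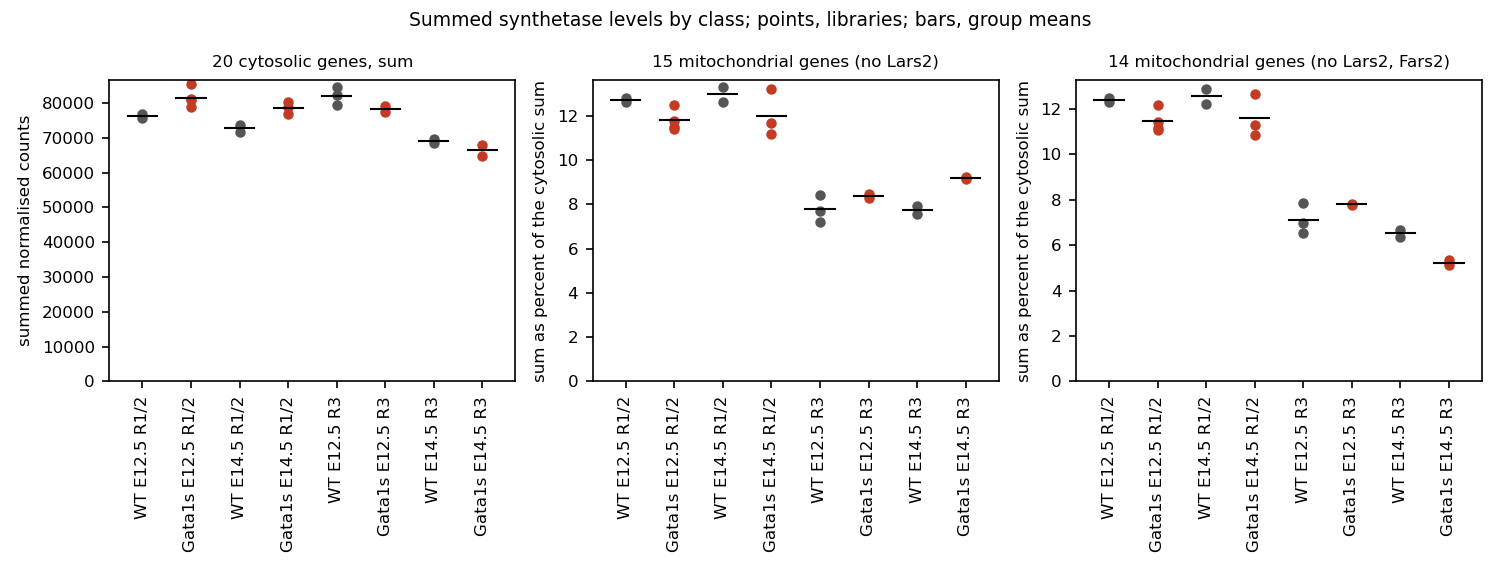
Sum of the normalised counts of the 20 cytosolic genes (left), and the sum of 15 mitochondrial genes (middle, without Lars2) or 14 (right, without Lars2 and Fars2) as a percent of it, in the 8 groups of genotype, day and sort. Points are libraries (grey, wild type; red, Gata1s) and bars group means; the middle percentages are 11.2 to 13.3 in R1/2 and 7.18 to 9.23 in R3.

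Most mitochondrial synthetase genes were lower in R3 than in R1/2, in both genotypes and on both days. In wild type, 12 of 16 fell at E12.5 and 13 at E14.5, and in Gata1s 12 and 14. The same comparison called 39.1, 41.6, 35.1 and 43.0% of the 10720 genes tested lower. The median log2 difference of the 16, R3 minus R1/2, was -0.78 and -1.11 in wild type and -0.63 and -1.68 in Gata1s, beside -0.08, -0.11, -0.04 and -0.12 over all genes tested. In 11 of the 16 every one of the 9 R3 libraries was below every one of the 11 R1/2 libraries, which held for 26.5% of all genes. No mitochondrial gene had all R3 libraries above all R1/2 libraries. Among MS libraries alone, 7 members of both classes rose and 21 fell in Gata1s E12.5, and 8 and 27 in Gata1s E14.5, beside 6 and 20, and 7 and 27, with all libraries. In wild type these would be 1 library against 1. Markers of other cells moved with the sort, and not all in the same direction. Of 8 neutrophil and monocyte markers, limma called 3 lower in R3 and 0 higher in Gata1s E12.5. In wild type it called 0 on either day, while edgeR called 4 lower at E14.5. Of 6 macrophage markers tested 5, 5, 5 and 2 were higher in R3 in the 4 comparisons. The hepatoblast markers gave 4, 5, 4 and 4 of 6, and the megakaryocyte markers 5 of 7 in each. In Gata1s E14.5 the 4 hepatoblast calls were made by limma after the prefix term, and edgeR called 0. The hepatoblast sums overlapped there, at 37.2 to 237 in R1/2 and 83.5 to 184 in R3. All 7 macrophage markers in the table summed to 25.2 to 125.5 normalised counts in R1/2 and 155 to 719 in R3, and all 8 hepatoblast markers to 37.2 to 996 and 83.5 to 3697, with none at 0. Their part in the differences between the sorts was not tested.

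Ears2, the mitochondrial glutamyl enzyme, fell most at E14.5. Its level was 178 and 199 normalised counts in wild type E12.5 R1/2, 199 and 150 in wild type E14.5 R1/2, 71.3, 91.0 and 47.6 in wild type E12.5 R3 and 26.5 and 14.2 in wild type E14.5 R3. In Gata1s it was 236, 207, 172 and 188 in E12.5 R1/2, 204, 164 and 173 in E14.5 R1/2, then 72.5 and 60.4 in E12.5 R3 and 18.4 and 16.2 in E14.5 R3. All R3 libraries were below all R1/2 libraries, and those of E14.5 R3 lowest of all. The log2 difference, R3 minus R1/2, was -1.53 ± 0.21 and -3.09 ± 0.23 in wild type and -1.38 ± 0.21 and -3.17 ± 0.21 in Gata1s at E12.5 and E14.5 (± standard error of the fit; limma adjusted p 6.14e-06, 3.2e-09, 2.16e-05 and 6.43e-10). The value of 14.2 rests on 3 reads, the fewest behind any value of a member.

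Yars2, the tyrosyl enzyme of the organelle, was at 827 and 895 in wild type E12.5 R1/2, 814 and 712 in E14.5 R1/2, then 411, 388 and 308 in E12.5 R3 and 217 and 151 in E14.5 R3. The Gata1s values were 871, 899, 781 and 783, then 812, 780 and 809, then 383 and 333, and 114 and 124, in the same order of groups. The sorts did not overlap, and the Gata1s libraries of E14.5 R3 were the lowest. The differences were -1.26 and -2.07 in wild type and -1.12 and -2.67 in Gata1s. Aars2 (alanyl) fell too, with log2 differences of -1.28 and -2.15 in wild type and -1.23 and -2.22 in Gata1s. For Vars2 (valyl) they were -1.38 and -2.07, and -1.18 and -2.12, and for Rars2 (arginyl) -1.15 and -1.84, and -0.78 and -1.95. In each of these genes the value at E14.5 was the wider of the 2 in both genotypes.

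Tars2 (threonyl), Mars2 (methionyl), Cars2 (cysteinyl), Sars2 (seryl), Wars2 (tryptophanyl), Pars2 (prolyl) and Hars2 (histidyl) also fell in all 4 comparisons. Their log2 differences ran from -0.33 (Sars2, Gata1s E12.5) to -1.80 (Cars2, Gata1s E14.5). The calls of Pars2 and Sars2 at E12.5 rested on single libraries. Pars2 in wild type had an adjusted p of 0.108 without R1/2 library 2 and of 0.0623 without R3 library 3. Pars2 in Gata1s had 0.0757 and 0.0507 without R1/2 libraries 3 and 4 and 0.224 without R3 library 2, and Sars2 there 0.0803 without R1/2 library 4 and 0.353 without R3 library 2. Iars2 (isoleucyl) fell at E14.5, at -0.45 in wild type and -0.68 in Gata1s, and its E12.5 values of -0.16 and -0.08 did not pass the test. Nars2 (asparaginyl) was called in 1 of the 4 comparisons, Gata1s E14.5, where it fell (-1.05 ± 0.11), and was at 0.11 ± 0.12 in wild type E14.5. The heat map of the 36 genes shows the mitochondrial block mostly blue in R3 apart from Fars2 and Lars2.

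**Figure D2:**
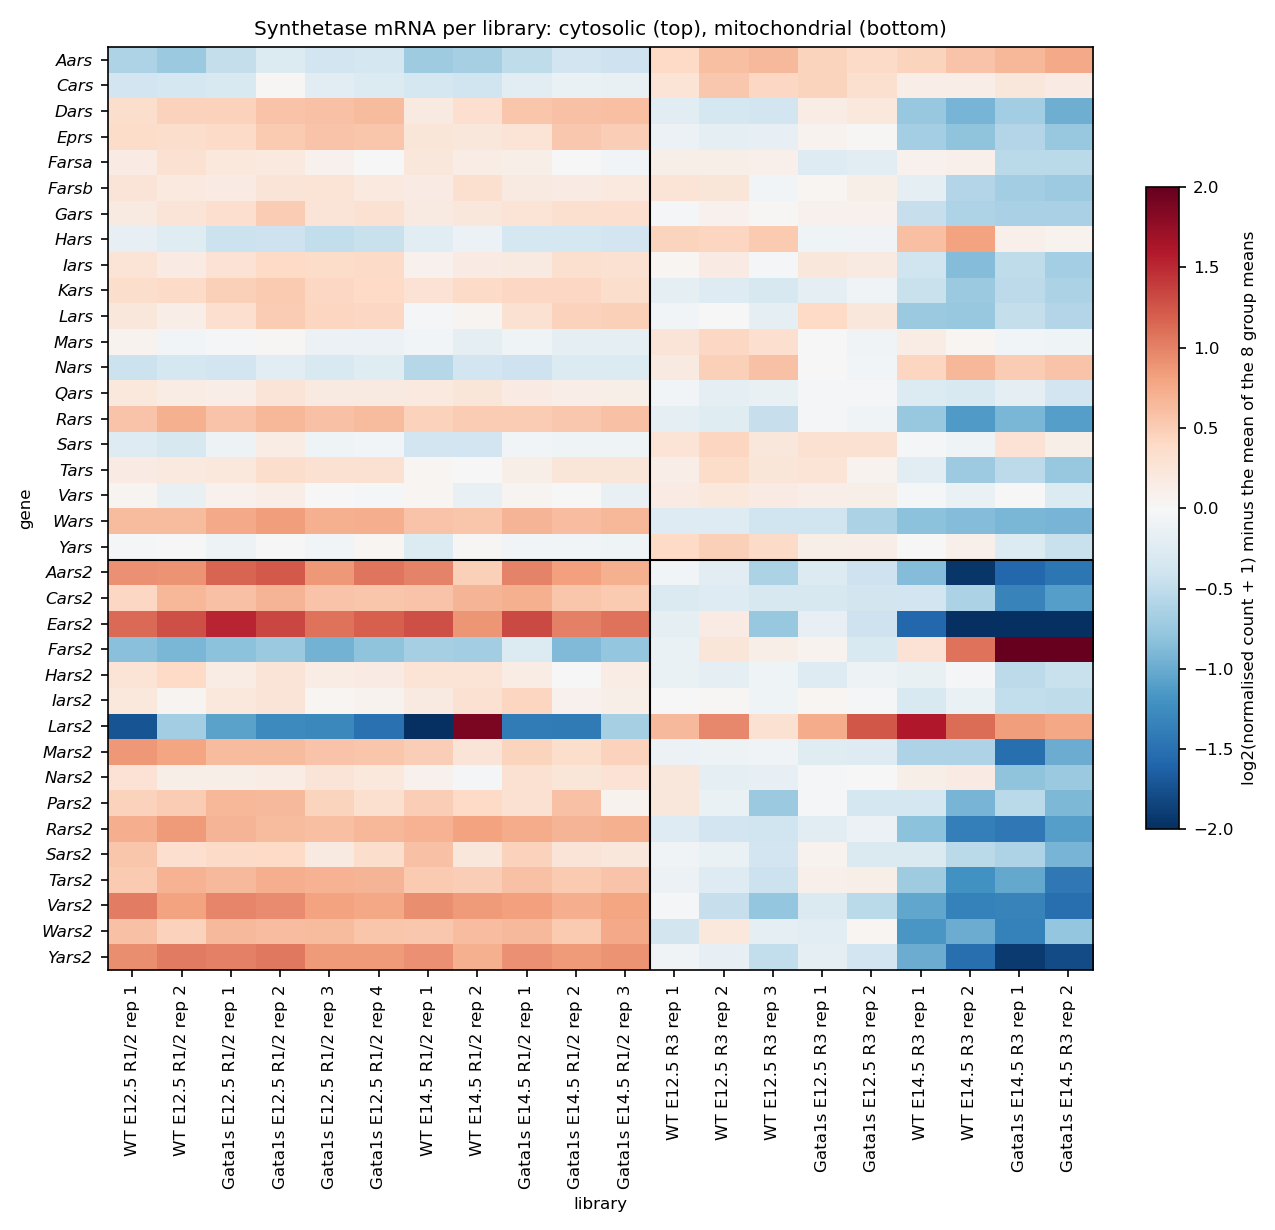
Level of each of the 36 genes (rows; cytosolic above the line, mitochondrial below) in each of the 20 libraries (columns; R1/2 left of the line, R3 right), as log2(normalised count + 1) minus the mean of the gene's 8 group means. Red is above and blue below that mean, and colours stop at 2 and -2; 11 mitochondrial genes are lower in every R3 than in every R1/2 library.

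Between the sorts some cytosolic genes rose and others fell. In wild type 8 of 20 rose and 8 fell at E12.5, and 6 rose and 11 fell at E14.5. In Gata1s 4 rose and 8 fell at E12.5, and 5 rose and 13 fell at E14.5. Of all genes tested, 35.9, 37.7, 33.9 and 38.7% were called higher in these comparisons, and 39.1, 41.6, 35.1 and 43.0% lower. The counts in wild type E12.5 lay near these shares. The median of the 20 was -0.10, -0.50, -0.10 and -0.69. In 4 of the 20 all R3 libraries were above all R1/2 libraries (23.9% of all genes), in 6 all were below (26.5%), and 10 overlapped. These counts too lay near the shares over all genes. Under quantile normalisation of the log2 values, the split of both classes together moved from 10 higher and 20 lower to 3 and 25 in wild type E12.5. It moved from 7 and 24 to 2 and 29 in wild type E14.5, and from 7 and 27 to 1 and 31 in Gata1s E14.5. For Gata1s E12.5 the split under this scaling is not given here, and Mars, Nars and Vars turned sign there.

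Aars, the cytosolic alanyl enzyme, had the highest rise of the class. It was at 3845 and 3500 in wild type E12.5 R1/2, 3577 and 3710 in E14.5 R1/2, then 7782, 8975 and 9266 in E12.5 R3 and 8053 and 8698 in E14.5 R3. In Gata1s it was at 4211, 4867, 4511 and 4624, then 4122, 4524 and 4420, then 8013 and 7671, and 9282 and 9957. Every R3 library was above every R1/2 library. The rise was 2.37-fold and 2.30-fold in wild type and 1.69-fold and 2.18-fold in Gata1s (log2 1.25, 1.20, 0.76 and 1.13; largest limma adjusted p 4.21e-07). Under quantile normalisation the log2 values were 0.56, 0.16, 0.43 and 0.04, and those at E14.5 did not pass (adjusted p 0.0657 and 0.594).

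Cars (cysteinyl), Hars (histidyl) and Sars (seryl) also rose in all 4 comparisons. The log2 differences of Cars were 0.78 and 0.51 in wild type and 0.59 and 0.36 in Gata1s, and turned to -0.16 in Gata1s E14.5 under quantile normalisation. Hars rose by 0.68 and 0.87, and by 0.35 and 0.44, and turned at E14.5 under quantile normalisation, to -0.15 and -0.43. Sars rose by 0.58 and 0.32, and by 0.36 and 0.30, and turned at E14.5, to -0.46 and -0.58. Nars (asparaginyl) rose by 0.83 and 1.02 in wild type and by 0.81 in Gata1s E14.5, while its 0.19 in Gata1s E12.5 did not pass (adjusted p 0.056). Its values under quantile normalisation were 0.02, -0.14, -0.18 and -0.37, so that only the first kept its sign. The other called rises, of Mars (methionyl, 0.32 and 0.21 in wild type), Yars (tyrosyl, 0.44 in wild type E12.5) and Vars (valyl, 0.21 there), all turned sign under quantile normalisation. The rise of Vars was also lost without wild type R1/2 library 2 (adjusted p 0.130) or R3 library 3 (0.0908).

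Of the 8 enzymes of the multisynthetase complex, 6 fell at E12.5 and 7 at E14.5 in wild type, and 5 and 7 in Gata1s. Of the 12 outside it, 2, 4, 3 and 6 fell, and 7, 5, 4 and 5 rose. Over all genes 39.1, 41.6, 35.1 and 43.0% fell and 35.9, 37.7, 33.9 and 38.7% rose, and the sets were not tested against each other. Mars was the 1 complex member that fell in none of the 4 comparisons. Rars (arginyl), in the complex, was at 2959 and 3254 in wild type E12.5 R1/2, 2745 and 2829 in E14.5 R1/2, then 1755, 1676 and 1436 in E12.5 R3 and 1178 and 902 in E14.5 R3. In Gata1s it was at 2956, 3142, 2986 and 3068, then 2835, 2879 and 2990, then 1946 and 1900, and 1058 and 927. The sorts did not overlap, and R3 was lower at E14.5 than at E12.5. The log2 differences of Rars were -0.95 and -1.43 in wild type and -0.63 and -1.53 in Gata1s. Those of Dars (aspartyl) were -0.73 and -1.10, and -0.39 and -1.42. Eprs carries the glutamyl and prolyl activities in 1 chain and was at -0.51 and -0.98, and at -0.49 and -1.13. Kars (lysyl) was at -0.64 and -0.93, and at -0.55 and -0.95.

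Qars (glutaminyl) fell in all 4 comparisons too, at -0.31, -0.51, -0.21 and -0.41, although the third was lost without Gata1s R3 library 2 (adjusted p 0.0631). Lars (leucyl) and Iars (isoleucyl) fell at E14.5, at -0.77 and -0.76 in wild type and -0.94 and -0.84 in Gata1s. The fall of Lars in wild type E12.5 (-0.26) was lost without R1/2 library 1 (adjusted p 0.0948) or R3 library 3 (0.0597). Outside the complex, Wars (tryptophanyl), an enzyme also known as an interferon-induced gene, fell in all 4 (-0.95 and -1.40, and -1.25 and -1.55). Gars (glycyl) fell as well (-0.21 and -0.74, and -0.24 and -0.95), its wild type E12.5 call being lost without R1/2 library 2 (adjusted p 0.146) or R3 library 1 (0.0533). Tars (threonyl) and Farsb (a phenylalanyl subunit) were called at E14.5 alone, where they fell (-0.49 and -0.63 in wild type, -0.83 and -0.87 in Gata1s). The wild type fall of Tars was lost without E14.5 R3 library 2 (adjusted p 0.0864). Farsa, the other subunit, fell in Gata1s (-0.34 and -0.54) and was at -0.13 and -0.09 in wild type. Yars fell in Gata1s E14.5 (-0.31). Of the genes with the TGATGNAA letters shown above, Aars thus rose and Gars fell in all 4 comparisons.

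**Figure D3:**
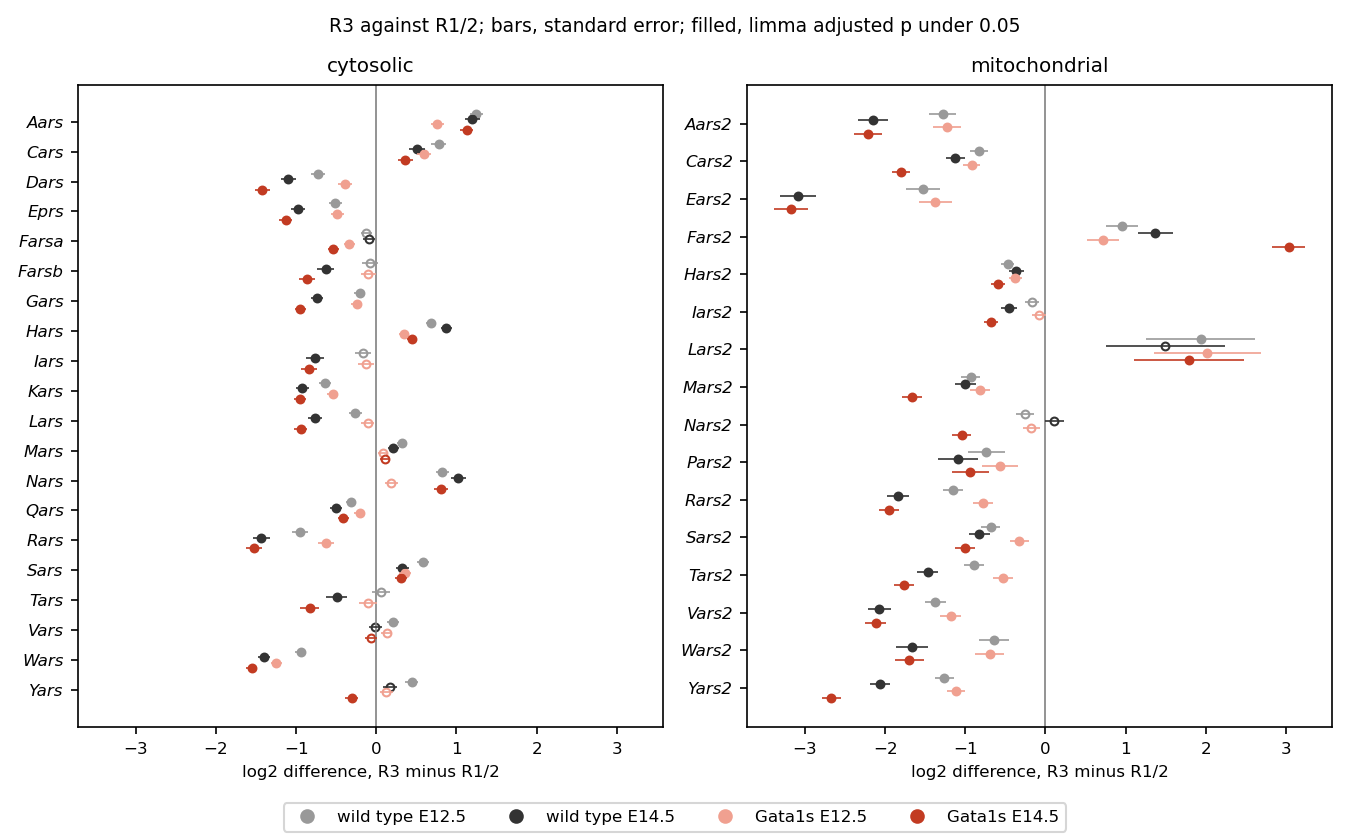
Log2 difference of each of the 36 genes between the sorts, R3 minus R1/2, in wild type (grey and black) and Gata1s (pink and red) at E12.5 and E14.5, with the standard error as a bar. Filled points passed limma's adjusted p under 0.05; in the mitochondrial panel all but Fars2, Lars2 and 1 open point of Nars2 lie left of 0, and under quantile normalisation every gene with a filled cytosolic rise other than Aars turns sign in at least 1 comparison.

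Fars2, the mitochondrial phenylalanyl enzyme, rose where most of its class fell. It was at 280 and 265 in wild type E12.5 R1/2, 315 and 311 in E14.5 R1/2, then 459, 592 and 546 in E12.5 R3 and 614 and 1072 in E14.5 R3. In Gata1s it was at 284, 300, 261 and 289 in E12.5 R1/2, 414, 271 and 294 in E14.5 R1/2, then 525 and 407 in E12.5 R3 and 2751 and 2519 in E14.5 R3. The Gata1s E14.5 R3 libraries stood above all others, and the genotypes overlapped in the other 3 combinations. In E14.5 R3 Fars2 was 3.26-fold higher in Gata1s (log2 1.70 ± 0.23, limma adjusted p 2.82e-05, edgeR 1.94e-05). Among MS libraries alone the difference was 1.30 on the log2 scale, against 1 wild type library.

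Between the sorts the log2 differences of Fars2 were 0.95 and 1.37 in wild type and 0.71 and 3.04 in Gata1s, the last an 8.21-fold rise. The rise in Gata1s E12.5 was lost without R3 library 1 (adjusted p 0.0822). From E12.5 to E14.5 in R3 it rose by 2.51 in Gata1s (5.68-fold, adjusted p 1.4e-07) and by 0.62 in wild type. The wild type rise was lost without E14.5 R3 library 2 (0.17, adjusted p 0.577) or E12.5 R3 library 1 (0.0861). The difference of the genotype effect between the days in R3 was itself tested and was 1.89 ± 0.30 (adjusted p 0.000575).

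Lars2, the mitochondrial leucyl enzyme, held most of the counts of its class in most libraries, and Rn45s, the entry for the precursor of ribosomal RNA, is given beside it. Lars2 was at 11406 and 23407 in wild type E12.5 R1/2, 8515 and 139282 in E14.5 R1/2, then 59242, 73692 and 46765 in E12.5 R3 and 114969 and 82282 in E14.5 R3. Rn45s was at 39443 and 93528, then 39590 and 769649, then 112297, 141341 and 130722, and 262605 and 262087 in the same libraries. Both entries were at their highest in library 2 of wild type E14.5 R1/2, the library with the neutrophil and monocyte markers.

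In Gata1s, Lars2 was at 17974, 15681, 15495 and 13409 in E12.5 R1/2, 14389, 14264 and 24011 in E14.5 R1/2, then 63664 and 89334 in E12.5 R3 and 67694 and 64727 in E14.5 R3. As a percentage of Rn45s it was 17.7 to 52.8% over the 20 libraries, and it made up 47.1 to 72.3% of the sum of the 16 mitochondrial genes in R1/2, apart from 93.7% in that library, and 88.8 to 95.6% in R3. limma called it higher in R3 in wild type E12.5 (1.94 ± 0.68) and in both Gata1s comparisons (2.02 ± 0.67 and 1.79 ± 0.69), and not in wild type E14.5 (adjusted p 0.0732). Each of these calls was lost without a single library. In wild type E12.5 this was R1/2 library 1 (adjusted p 0.125) or R3 library 2 (0.0549). In Gata1s the E12.5 call was lost without E12.5 R3 library 2 (0.0950), and the E14.5 call without E14.5 R1/2 library 2 (0.0799) or E14.5 R3 library 1 (0.0870) or 2 (0.0773). Lars2 differed between the genotypes in no combination by limma. Among MS libraries alone it was at -2.91 in E14.5 R1/2, where library 2 is the only wild type library. The part of ribosomal RNA in the Lars2 values was not tested.

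**Figure D4:**
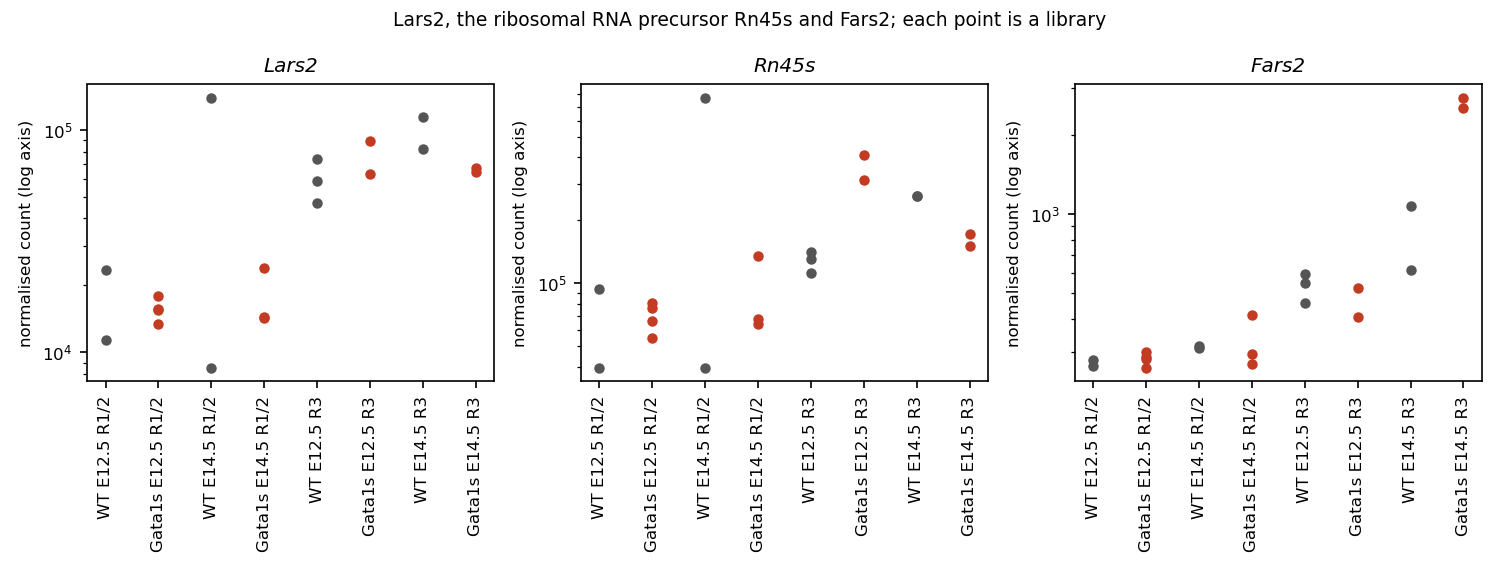
Normalised counts of Lars2, of the ribosomal RNA precursor entry Rn45s and of Fars2 in each of the 20 libraries, by group, on log axes (grey, wild type; red, Gata1s). Lars2 and Rn45s share their highest point, 139282 and 769649, in wild type E14.5 R1/2, and Fars2 stands at 2751 and 2519 in Gata1s E14.5 R3.

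Few synthetase genes differed between the genotypes in R1/2. The 3 of 36 called on each day lay near the background over all genes, which is given beside them. At E12.5 the cytosolic Aars (0.31 ± 0.08) and Sars (0.27 ± 0.07) were called higher in Gata1s and Hars lower (-0.24 ± 0.06), with 4.95% of all genes called higher and 4.6% lower. At E14.5 Dars (0.32 ± 0.09), Lars (0.40 ± 0.08) and Sars (0.32 ± 0.07) were called higher, with 5.0% of all genes called higher and 5.13% lower. No mitochondrial gene was called by limma (0 at E12.5 and 1 at E14.5 with an unadjusted p under 0.05), and edgeR called 1 lower at E14.5, Lars2, among 7.08% of all genes. DESeq2 called Mars2 lower at E12.5 and Lars2 lower at E14.5. The split at E14.5 was 5 higher and 1 lower under quantile normalisation. Against the 1 wild type library among the MS libraries 1 member was higher and 1 lower at E12.5, and 5 higher and 2 lower at E14.5. The neutrophil and monocyte markers summed to 1408 to 3284 in Gata1s E12.5 R1/2 beside 245 to 1193 in wild type, 2 of 8 being called higher, and the hepatoblast markers to 211 to 996 beside 50.8 to 347, 3 of 6 being called higher. At E14.5 the neutrophil and monocyte markers summed to 4673 to 5017 beside 748 and 19791. Of 7 megakaryocyte markers 4 were higher at E12.5 and 3 at E14.5. The part of these markers in these differences was not tested.

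These calls in R1/2 were fragile apart from Lars. Without library 2 of wild type, the E12.5 call of Aars was lost (adjusted p 0.222). Hars was lost without wild type library 1 (0.271), Gata1s library 3 (0.0600) or Gata1s library 4 (0.0524). Sars at E12.5 was lost without either wild type library or without Gata1s library 2 or 4, with adjusted p of 0.0560 to 0.151, and at E14.5 without wild type library 1 (0.0901) or 2 (0.0787). Dars was lost without any 1 of the 5 libraries of E14.5 R1/2, with adjusted p of 0.0640 to 0.212.

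In E12.5 R3 the called cytosolic genes went both ways. Higher in Gata1s were Dars (0.49 ± 0.09), Lars (0.40 ± 0.09) and Rars (0.29 ± 0.10), all of the complex. Lower were Hars (-0.57 ± 0.07), Nars (-0.54 ± 0.09), Yars (-0.33 ± 0.08) and Farsa (-0.31 ± 0.07), all outside it, and Mars (-0.31 ± 0.06) of the complex. Among all genes tested 14.2% were called higher and 21.7% lower, so the 3 higher and 5 lower of 20 lay near the background. The medians were 0.18 for the 8 complex genes, -0.11 for the 12 others and -0.00 over all genes. The direction of Mars turned to 0.0091 under quantile normalisation, where Nars (-0.14), Yars (-0.04) and Farsa (-0.08) did not pass and the split of all members was 12 higher and 1 lower in place of 4 and 5.

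Nars was at 8790, 10863 and 11665 in wild type E12.5 R3 and at 7742 and 7511 in Gata1s. Dars was at 2242, 2045 and 2003 in wild type and at 2920 and 3033 in Gata1s. Neither gene's genotypes overlapped there, at 3 libraries against 2, and the share of all genes without overlap was not counted. Members not called by limma did not overlap there either, such as Eprs and Kars, higher in Gata1s, and Vars and Wars, lower. The call of Rars was lost without wild type R3 library 2 (adjusted p 0.0530) or 3 (0.259), Gata1s R3 library 1 (0.147) or 2 (0.104), or Gata1s R1/2 library 2 (0.0502). Of the mitochondrial genes only Tars2 was called (0.44 ± 0.13), lost without wild type library 3 (0.109) or Gata1s library 1 (0.0688) or 2 (0.0759). Against the 1 wild type library among the MS libraries 7 members were higher and 6 lower. The erythroblast markers summed to 586416 to 856719 in wild type and 314071 to 316313 in Gata1s in this combination, 7 of 7 being called lower. Of 6 hepatoblast markers 4 were called higher in Gata1s, and of 7 megakaryocyte markers 3 were. The hepatoblast sums, 1030 to 1878 beside 777 to 1930 in wild type, overlapped. The calls were made after the prefix term, in which these markers were lower in MS. The part of these markers in the differences was not tested.

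In E14.5 R3 members of both classes were called. Of the 16 mitochondrial genes 5 were lower in Gata1s and 1, Fars2, higher, with a median of -0.23. Of the 20 cytosolic genes 3 were lower and 1 higher, with a median of -0.02, beside -0.05 over all genes. Among all genes tested 20.7% were called lower and 16.8% higher by limma, and 15.3% and 14.3% by edgeR, so the 8 lower of 36 lay near the background. The classes were not tested against each other. Nars2 was at 392 and 406 in wild type and 207 and 216 in Gata1s, and Cars2 at 260 and 217 against 133 and 156. Hars2 was at 442 and 477 against 339 and 358. None of the 3 overlapped between the genotypes, at 2 libraries against 2, and the Gata1s libraries were lower. The share of all genes without overlap there was not counted. Members not called by limma did not overlap there either, such as Gars, Iars2 and Sars2, lower in Gata1s, and Aars and Lars, higher. Their log2 differences were -0.89 ± 0.13, -0.70 ± 0.12 and -0.41 ± 0.10 (limma adjusted p 4.69e-05, 0.000342 and 0.00326; edgeR 0.00052, 0.00358 and 0.0287).

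Yars2 was at -0.50 ± 0.13 and was lost without wild type library 1 (adjusted p 0.0600). Mars2 was at -0.61 ± 0.14 and was called by limma (0.00265) but not by edgeR (0.0531). Among cytosolic genes, Hars (-0.63 ± 0.07), Farsa (-0.60 ± 0.08) and Yars (-0.43 ± 0.09) were lower in Gata1s. Sars was higher (0.30 ± 0.08), which was lost without Gata1s library 1 (0.113). Against the 1 wild type library among the MS libraries 4 members were higher and 8 lower. Markers of other cells differed between the genotypes here, in calls made after the prefix term, as all Gata1s R3 libraries are MS. The megakaryocyte markers summed to 923 to 1105 in wild type and 3754 to 4922 in Gata1s, with 5 of 7 called higher. The hepatoblast markers summed to 331 to 3697 and 83.5 to 184, with 4 of 6 called lower, and the macrophage markers to 354 to 453 and 155 to 175, with 3 of 6 called lower. Their part in these differences was not tested.

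Hars and Lars differed in the same direction in all 4 combinations. Hars was at 3263 and 3094 in wild type and 2721, 2756, 2617 and 2699 in Gata1s E12.5 R1/2, and at 3149 and 3397 against 2867, 2867 and 2825 in E14.5 R1/2. In R3 it was at 5020, 4942 and 5301 against 3453 and 3510 at E12.5, and at 5562 and 6445 against 3957 and 3871 at E14.5. The Gata1s libraries were below the wild type libraries in each combination, and the gap was wider in R3. How many of all genes keep such an order was not counted. The mean over the 4 combinations was -0.41 ± 0.03 (1.33-fold, adjusted p 9.13e-08), and the difference of the genotype effect between the sorts was -0.38 (adjusted p 0.000843).

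Lars was at 3530 and 3300 in wild type and 3796, 4281, 4077 and 4015 in Gata1s E12.5 R1/2, and at 2981 and 3148 against 3740, 4162 and 4212 in E14.5 R1/2. In R3 it was at 2889, 3036 and 2635 against 3976 and 3527, and at 1806 and 1785 against 2176 and 2012. The Gata1s libraries were above the wild type libraries in each combination, an order that was likewise not counted over all genes. The mean was 0.32 ± 0.04 (1.24-fold, adjusted p 2.16e-05), and the single combinations were called in E12.5 R3 and E14.5 R1/2.

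Over the mean of the 4 combinations, 5 cytosolic genes were higher in Gata1s and 4 lower, with 19.7% of all genes called higher and 25.6% lower. Besides Lars these were Dars (0.24), Sars (0.23), Aars (0.14) and Eprs (0.14) as higher, and Farsa (-0.29), Yars (-0.18) and Mars (-0.13) besides Hars as lower. Of the mitochondrial genes Fars2 was higher (0.40) and Mars2 (-0.23), Hars2 (-0.20) and Cars2 (-0.17) were lower. The calls of Aars, Eprs and Cars2 were lost without single libraries: Aars without library 2 of wild type E12.5 R1/2 (adjusted p 0.0791), and Eprs without wild type E14.5 R1/2 library 2 (0.0538) or R3 library 2 (0.0742). Cars2 was lost without any 1 of 5 libraries: wild type E12.5 R1/2 library 2 (0.145), wild type E14.5 R1/2 library 2 (0.113), Gata1s E14.5 R3 library 1 (0.0669), Gata1s E12.5 R3 library 2 (0.0520) and Gata1s E12.5 R1/2 library 1 (0.0507). The split of both classes was 6 higher and 7 lower, 9 and 6 under upper-quartile scaling, 12 and 5 under quantile normalisation and 11 and 9 among MS libraries.

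**Figure D5:**
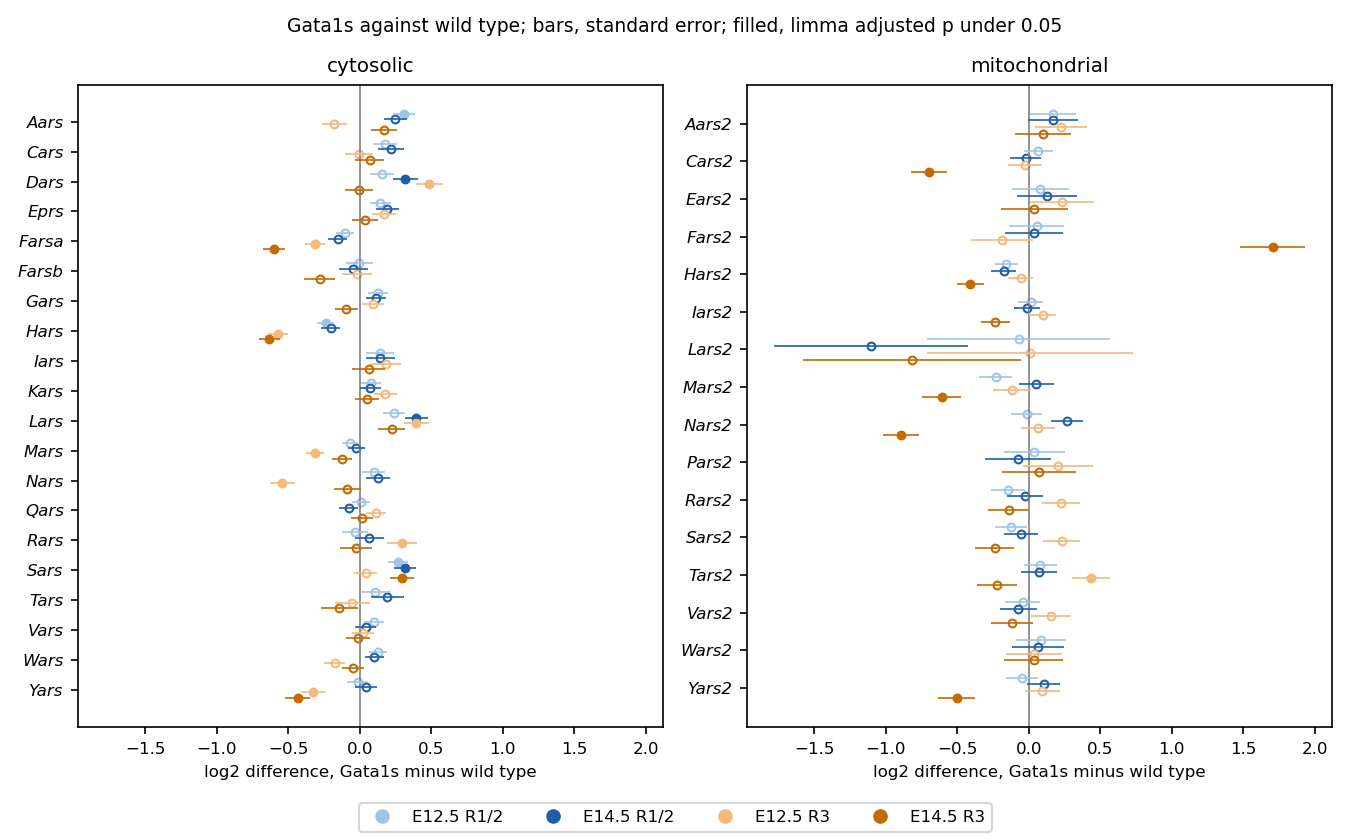
Log2 difference of each of the 36 genes between the genotypes, Gata1s minus wild type, in R1/2 (light and dark blue) and R3 (light and dark orange) at E12.5 and E14.5, with the standard error as a bar. Filled points passed limma's adjusted p under 0.05; Hars lies left of 0 and Lars right of it in all 4 combinations, and Fars2 reaches 1.70 in E14.5 R3, while Mars in E12.5 R3 turns sign under quantile normalisation.

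Whether the genotype effect itself differed was tested for all members. Between the sorts it differed for 9 of 36, 1 (Fars2) higher in R3 and 8 lower, beside 8.81 and 12.9% of all genes. The split was 1 and 3 under quantile normalisation and 3 and 7 among MS libraries. Between the days in R3 it differed for 9, with 3 higher at E14.5 (Fars2, Nars and Aars) and 6 lower, beside 13.5 and 9.54% of all genes. That split was 2 and 8 under upper-quartile scaling, 1 and 14 under quantile normalisation, where Aars turned to -0.030, and 4 and 4 among MS libraries.

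Between the days, no member was called in R1/2 in either genotype by limma. In wild type 0.784% of all genes were called higher and 0.252% lower, and in Gata1s 1.08 and 0.243%. Mars2 was the 1 member in wild type with an unadjusted p under 0.05 (-0.45 ± 0.13), and edgeR, among 0.541% of all genes, and DESeq2 called it lower. There were 0 such members in Gata1s, and 0 by edgeR or DESeq2. In R3 both classes fell. In wild type R3, 15 cytosolic genes fell from E12.5 to E14.5 and 1, Hars, rose, and 8 mitochondrial genes fell and 1, Fars2, rose, beside 19.5% of all genes lower and 21.1% higher. In Gata1s R3, 14 cytosolic genes fell and 3 rose (Nars 0.57, Aars 0.29 and Hars 0.17), and 13 mitochondrial genes fell and 1, Fars2, rose, beside 30.5% lower and 29.5% higher. The medians were -0.37 and -0.45 in wild type and -0.43 and -0.92 in Gata1s for the cytosolic and mitochondrial classes, beside 0.01 and -0.06 over all genes. The falls of Ears2 (-1.68 in wild type and -1.88 in Gata1s), Aars2 (-1.04 and -1.16) and Yars2 (-0.98 and -1.58) were the 3 widest among the mitochondrial genes in wild type R3.

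Among the cytosolic genes the widest fall in wild type R3 was of Tars (-0.72) and in Gata1s R3 of Dars (-1.01). The rise of Hars turned to -0.17 in wild type and -0.45 in Gata1s under quantile normalisation, and those of Nars and Aars in Gata1s to -0.25 and -0.47. The rise of Hars in wild type was also lost without E14.5 R3 library 2 (adjusted p 0.207), and that in Gata1s in each of 13 fits that left 1 library out. Aars in Gata1s was lost without E12.5 R3 library 2 (0.0594) or E14.5 R3 library 2 (0.0731). In wild type, Cars was lost without E12.5 R3 library 2 or 3 or E14.5 R3 library 1 or 2 (0.0639 to 0.110), and Vars without E12.5 R3 library 3 or E14.5 R3 library 1 or 2 (0.0738 to 0.0899). Kars (0.0912) and Mars (0.0606) were lost without E14.5 R3 library 2. In Gata1s, Hars2 was lost without E14.5 R3 library 1 (0.0567) or E12.5 R3 library 2 (0.0918), and Qars (0.129) and Vars (0.184) without E14.5 R3 library 2. The erythroblast markers summed to 1136656 to 1670105 in wild type and 1191346 to 1193867 in Gata1s E14.5 R3, above E12.5 R3 in both genotypes. From E12.5 to E14.5 in R3, 5 of 6 hepatoblast markers and 2 of 6 macrophage markers fell in Gata1s, from sums of 1030 to 1878 and 291 to 719 to sums of 83.5 to 184 and 155 to 175. In wild type 4 of 8 neutrophil and monocyte markers rose, from sums of 306 to 620 to 1322 and 3040, and 3 of 7 megakaryocyte markers fell. The part of all these markers in the falls was not tested.

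Other genes of tRNA charging and translation were read beside the members. Of 12 further charging genes, 3 were lower and 0 higher in Gata1s over the mean of the 4 combinations, where 25.6% of all genes were lower, which is near that share. The smallest adjusted p among them was that of Eef1e1, which encodes a scaffold protein of the multisynthetase complex (-0.71, adjusted p 1.35e-08). Of 7 cytosolic elongation factors none was called by limma (3 with an unadjusted p under 0.05) and 2 were higher by edgeR, among 19.2% of all genes. Of 9 mitochondrial translation factors none was called by limma or edgeR (2 with an unadjusted p under 0.05). Between the sorts, 6, 6, 5 and 6 of the 9 mitochondrial factors fell in R3 in wild type E12.5 and E14.5 and in Gata1s E12.5 and E14.5, and 1 rose, in Gata1s E14.5, beside 39.1, 41.6, 35.1 and 43.0% of all genes that fell. Of 22 measured genes of the Atf4 response, the program that cells use when amino acids run short, 11 were higher and 3 lower in Gata1s over the mean, beside 19.7 and 25.6% of all genes. Among them Slc7a11, a cystine transporter, was at 5.92 and Atf5, a transcription factor, at 1.98 on the log2 scale (adjusted p 5.7e-11 and 3.9e-08). Their medians were 0.27 for the Atf4 list, 0.05 for the cytosolic synthetases and -0.03 for the mitochondrial synthetases and for all genes tested.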

How the data were processed

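RNA of 20 sorted erythroblast libraries, of 60 samples in the series, was used, and the others were not analysed here. Gene by gene, the authors deposited normalised counts as their signal. Per the submitters' processing notes, the tools Bowtie2, DESeq2, HTSeq, TopHat2 and Trim Galore and 2 builds, mm9 and mm10, were in use; their roles for RNA are not given in the sources. Of 23420 entries, 27 carry a date in place of a name (0.199 to 0.359% of a library) and were left out, as was 1 column that matches no sample. Each library's smallest value above 0 was taken as 1 read: 100% of values were then whole reads within 0.001, and 1 read equals 0.36 to 4.72 normalised counts, which limits low genes. Totals of normalised counts were lower in every R1/2 than in every R3 library.

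Values were taken as log2(normalised count + 1) and fitted in limma 3.58.1 (R 4.3.3, trended empirical Bayes) over the 10720 genes whose mean reached 10, with 8 group means and a term for the name prefix JC or MS, whose meaning is not given. This scale understates changes of low genes. All 36 members passed the filter. A call means a Benjamini-Hochberg adjusted p under 0.05, adjusted over all genes of a comparison. With 11 residual degrees of freedom and small R3 groups, edgeR 4.0.16 (quasi-likelihood test on recovered reads) was run beside it, and DESeq2 1.42.0, 2 pseudocounts, 2 filters, 2 scalings, no prefix term, MS libraries alone, a replicate block and each library left out in turn were tried. Of these procedures, limma and edgeR were run on simulated data with genotype differences alone, and the outcome is not given here. The sort, day and interaction comparisons and DESeq2 were not scored in this way. Where leaving a library out leaves 1 in a group, it is assumed to vary like the others.

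The members and all gene lists were chosen with earlier results of these data known, and the sums without Lars2 and without Fars2 after their values were seen. All members are named; of each other list, up to 2 genes called in the mean genotype comparison with the smallest adjusted p. A gene that this rule would name is not reported here. Names and bases are from RefSeq (GRCm38.p6). Floors and calls cover counting error and spread between libraries only. Reads shared with near-identical copies cannot be told apart from the table.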

Additional observations from a re-analysis of the deposited data

Results flagged for a closer look

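Each result here is a difference of the genotype effect, Gata1s minus wild type on the log2 scale, between 2 conditions, tested as an interaction within limma's fit over all genes. Between the sorts (R3 minus R1/2, mean of both days) 9 members passed. Hars, at -0.38 (adjusted p 0.000843), Yars at -0.40 (0.00271), Nars at -0.43 (0.00282), Farsa at -0.33 (0.00389) and Nars2 at -0.54 (0.00401) were called in every fit that left 1 library out and by edgeR. Cars2, at -0.38 (0.0247), and Fars2, at 0.71 (0.0255), were also called by edgeR. Cars2 lost its call without each of 4 libraries, wild type E12.5 R1/2 library 1 (adjusted p 0.1004), wild type E14.5 R1/2 library 1 (0.0921), Gata1s E14.5 R3 library 1 (0.0575) and Gata1s E12.5 R3 library 2 (0.0514), and Fars2 without each of 5, up to 0.0713 (Gata1s E12.5 R3 library 1). Aars, at -0.28 (0.0261), and Wars, at -0.23 (0.0312), were not called by edgeR and lost their calls in several such fits, with adjusted p up to 0.0714 for Aars (without wild type E14.5 R3 library 2) and 0.0880 for Wars (without wild type E14.5 R1/2 library 1).

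Between the days in R3 (E14.5 minus E12.5) 9 members passed. Fars2 was at 1.89 (0.000575), Nars2 at -0.96 (0.000992) and Cars2 at -0.67 (0.00811), and these were called in every fit that left 1 library out. Dars was at -0.49 (0.0137) and lost its call without wild type E14.5 R3 library 1 (0.0852) or Gata1s E14.5 R3 library 2 (0.0770). Nars was at 0.45 (0.0165), lost without wild type E14.5 R3 library 1 (0.0711), Gata1s E12.5 R3 library 2 (0.0564) or Gata1s E14.5 R3 library 2 (0.0583). Tars2 was at -0.66 (0.0176), lost without wild type E14.5 R3 library 1 (0.123), Gata1s E12.5 R3 library 2 (0.0511) or Gata1s E14.5 R3 library 2 (0.0971). Yars2 was at -0.60 (0.0201), lost without wild type E14.5 R3 library 1 (0.126), wild type E12.5 R3 library 3 (0.0570), Gata1s E14.5 R3 library 1 (0.0577) or Gata1s E12.5 R3 library 1 (0.0914). Aars, at 0.35 (0.0449), and Farsa, at -0.29 (0.0489), were not called by edgeR and lost their calls in most fits that left 1 library out, with adjusted p up to 0.144 for Aars and 0.127 for Farsa. Aars turned to -0.030 under quantile normalisation. In Gata1s E12.5 R1/2, the 1 group of 4 libraries, no library stood apart in the level of any of the 36 members, and the other groups are too small for this check.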

How the results depend on the processing

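A value counted as kept where it was called in neither fit, or in both with the same direction. A change of sign in a value called in neither fit was thus not counted. Of 540 values (36 members in 15 comparisons), all were kept with pseudocounts of 0.5 and 5, 538 with a mean of at least 50 and 535 with no filter. Kept were 528 without the prefix term, 527 by DESeq2, 526 by edgeR, 522 under upper-quartile scaling, 520 with the replicate block and 440 under quantile normalisation. Of the values called in at least 1 of the 2 fits compared, quantile normalisation alone reversed some, and the cause was not tested. Mars turned to 0.0091 between the genotypes in E12.5 R3. Between the sorts, in wild type E12.5, Mars turned to -0.27, Tars to -0.49, Vars to -0.54 and Yars to -0.12, and in wild type E14.5 Hars to -0.15, Mars to -0.61, Nars to -0.14, Sars to -0.46 and Yars to -0.54. In Gata1s E12.5 Mars turned to -0.19, Nars to -0.18 and Vars to -0.25, and in Gata1s E14.5 Cars to -0.16, Hars to -0.43, Mars to -0.66, Nars to -0.37 and Sars to -0.58. Between the days, Hars turned to -0.17 and Nars to -0.29 in wild type R3, and Aars to -0.47, Hars to -0.45 and Nars to -0.25 in Gata1s R3. The genotype by day value of Aars turned to -0.030. Members called between the genotypes were 3 in E12.5 R1/2 (0 with the replicate block, 5 by DESeq2), 3 in E14.5 R1/2 (6 under quantile normalisation, 7 among MS libraries, 6 by DESeq2) and 13 over the mean (20 among MS libraries). Between the days in wild type R1/2, 0 were called, and 1 under quantile normalisation, among MS libraries, by edgeR and by DESeq2. Genotype by sort called 9 (4 under quantile normalisation) and genotype by day 9 (15 under quantile normalisation, 5 without the prefix term, 5 with the block). With 1 library left out the calls ranged from 1 to 4 in E12.5 R1/2, 1 to 5 in E14.5 R1/2, 0 to 1 between the days in wild type R1/2 and 4 to 11 for genotype by day. Replicate numbers are no pairing by the labels. Deviations of the 59 same-numbered pairs correlated at -0.17 to 0.37, over 0.1 in 17. Those of the 114 other pairs correlated at -0.37 to 0.36, over 0.1 in 19. These values cannot decide on a pairing, since deviations in groups of 2 mirror each other and the prefix was not removed. Among JC libraries alone no genotype comparison in R3 was possible. Depth limits low genes most, such as Ears2 in E14.5 R3.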
